A study of Mus musculus with 63 samples.

Results

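Synaptopodin coimmunoprecipitates (coIP) from lesioned wildtype tissue cultures of the mouse entorhinal cortex and hippocampus were compared with the lysates they came from, to ask which RNAs were over- or underrepresented in the material pulled down by a synaptopodin antibody. These were the 10 libraries labelled as wildtype, ECL, out of the 63 libraries of the series: 5 coIP libraries and 5 input libraries, paired by lysate. ECL is the entorhinal cortex lesion, a transection of the perforant path that removes the entorhinal input of the hippocampus. Cultures were prepared from C57BL/6J pups (Synpo+/+) of either sex at postnatal day 3 to 5 and kept for at least 18 days in vitro, and the time between lesion and lysis was not given for these libraries.

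Each lysate pooled 5 to 6 cultures, homogenised with cycloheximide, which holds ribosomes on their mRNA, and an RNase inhibitor. It was precleared 2 times with protein A beads. An aliquot of the precleared lysate was the input, and the rest was incubated with rabbit anti-synaptopodin on protein A beads. The comparison groups were 5 coIP and 5 input libraries from wildtype cultures without a lesion, and 2 coIP and 2 input libraries from cultures labelled Synpo-/- (B6.129-Synpo tm1Mndl/Dllr, a constitutive deletion backcrossed at least 10 times). The Synpo-/- labels name no lesion, and these libraries were deeper (42886994 to 53682143 counts). The sex of the pups differed as well. Both Synpo-/- inputs held Xist, an RNA of the inactive X chromosome, at 168 and 154 CPM (counts scaled to a common library total). The Y-linked Ddx3y was at 0.201 and 0.025 CPM there. In the lesioned wildtype inputs of lysates 1 to 5 Ddx3y was at 150, 91.6, 158, 143 and 0.517 CPM, so only lysate 5 was similarly low. Genotype, lesion, sex and depth therefore cannot be told apart between the Synpo-/- and the lesioned wildtype libraries.

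Synaptopodin is an actin-binding protein of dendritic spines and of the axon initial segment. It is essential for the spine apparatus, a stack of smooth endoplasmic reticulum found in a subset of spines that stores calcium. Dendrites hold ribosomes and translate a set of mRNAs locally. RNA recovered in a coIP includes RNA bound by the bait, RNA in larger particles that contain it, and RNA that adheres to antibody or beads, and the libraries alone do not separate these. A coIP library also reports shares of its RNA, so a gene is higher only relative to the other genes of that library.

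Input libraries held 19844632 to 29014397 counts and coIP libraries 11601154 to 23375931, with the coIP of lysate 4 the shallowest. Mitochondrially encoded genes took 1.83 to 2.64% of the counts in inputs and 4.18 to 6.27% in coIP libraries. Neuronal and astrocytic genes of the labelled tissue were present: Snap25 ranged from 4870 to 6130 and Gfap from 17100 to 25500 CPM (counts scaled to a common library total) in the inputs, whereas the endothelial marker Pecam1 lay between 0.0806 and 0.644 CPM and Alb, a liver gene, had a median of 0 CPM. Synpo RNA itself did not mark the genotypes, with 26.7 to 30.2 CPM in inputs labelled Synpo-/- and 24.7 to 31.5 CPM in the lesioned wildtype inputs. A total over the whole gene says nothing of single exons, so these values do not check the label, and the absence of the bait was not tested in these libraries. The 5 lysates differed in how far coIP and input stood apart: the slope of a lysate's log2 ratios on the mean of the other 4 was 0.571, 1.18, 0.871, 1.25 and 0.753 for lysates 1 to 5, so lysate 1 held the smallest and lysate 4 the largest ratios.

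The coIP differed from its input across most of the transcriptome. Of 18229 genes tested, 5804 were higher (31.8%) and 5572 lower (30.6%) in the coIP (edgeR's quasi-likelihood test with lysate as a block, Benjamini-Hochberg adjusted p under 0.05). Of these, 2294 were more than 2-fold higher and 1654 more than 2-fold lower, within a log2 fold change range of -3.32 to 3.53. The median over all genes tested was 0.01. In 3902 genes all 5 coIP values lay above all 5 input values (21.4% of those tested), and in 3683 genes they lay below (20.2%). Since close to 1 in 3 genes was called in each direction, counts within a gene group are read against these shares. When each lysate was left out in turn, 4565 of the 5804 higher genes (78.7%) and 4479 of the 5572 lower genes (80.4%) were called in all 5 fits. Scaling by library size alone raised the median of all genes by 0.193 on the log2 scale. It gave 7214 higher and 4062 lower genes (64% higher, against 51% with TMM scaling). With each library's trend over exon length removed 58.2% of the calls were higher.

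**Figure D1:**
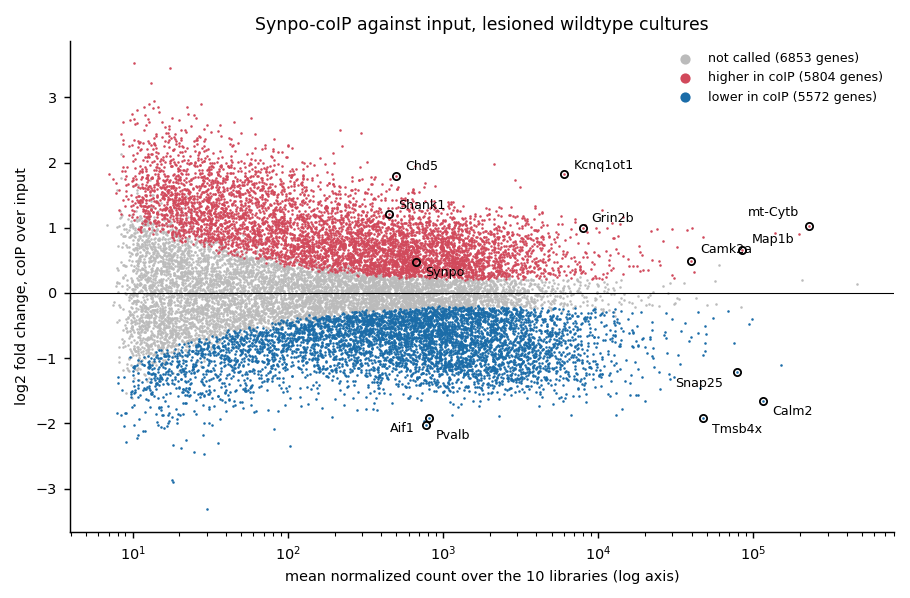
Log2 fold change of coIP against input (vertical axis) over the mean normalised count of the 10 lesioned wildtype libraries (horizontal log axis) for the 18229 genes tested, with called genes coloured by direction. Calls in both directions, 5804 higher and 5572 lower, extend over the whole range of expression.

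Synpo, the gene of the bait, lay on the higher side. Its mRNA (chromosome 18, 60593973-60660142, GRCm38) had normalised counts (counts scaled to a common library size, listed here and throughout from lysate 1 to lysate 5) of 631, 589.8, 587, 504 and 502 in the inputs and 717, 886, 737, 824 and 747 in the coIP libraries. All coIP values exceeded all inputs (log2 fold change 0.48, SE 0.102, adjusted p = 0.00176). This call depended on how transcript length was handled: the log2 fold change was -0.23 (adjusted p = 0.0264) with the length and GC trends of each library removed, within a range of adjusted p from 0.000215 to 0.211 over all alternatives. Of the family of synaptopodin and the alpha-actinins, actin crosslinkers of which several bind synaptopodin, 5 of 6 tested members were higher (log2 fold changes in brackets after a gene, and medians of them for a list, here and throughout; median 0.77): Synpo, its paralogue Synpo2 (1.02), Actn1 (0.99), Actn2 (0.83) and Actn4 (0.71), with Actn3 (0.41, adjusted p = 0.18) as the exception. Synpo2 was at 106, 87.3, 99.6, 54 and 71.6 in the inputs and 208, 203, 169, 74.3 and 213 in the coIP libraries, and only lysate 4, with the lowest values in both fractions, made the groups overlap.

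The calcium store of the endoplasmic reticulum, of which the spine apparatus is a local form, was represented by 17 tested genes, of which 12 were higher and 1 was lower (median 0.65). The largest log2 fold changes were those of the calcium release channels Itpr3, Ryr2 and Ryr1, of which Itpr3 and Ryr1 had few counts (mean normalised counts 27 and 22.2). All 3 ryanodine receptors, Ryr1 (1.13), Ryr2 (1.19) and Ryr3 (0.85), were higher, and so were all 3 inositol trisphosphate receptors, Itpr1 (0.89), Itpr2 (0.89) and Itpr3 (1.89). The calls of Ryr3 and of the calcium sensor Stim1 were lost with the length trend removed (adjusted p = 0.137 and 0.0508), and that of Ryr1 there, without the block and without lysate 2, 4 or 5. Itpr3 was a low gene, at 18.4, 6.59, 9.64, 9.72 and 12.4 in the inputs and 25.9, 45.8, 39.2, 54.6 and 47.6 in the coIP libraries, with every coIP value above every input. The pump Atp2a2 (0.64), the junctophilin Jph4 (1.01), which ties the store to the plasma membrane, and Stim1 (0.65) were higher as well. The 1 lower member was the plasma membrane channel subunit Orai3 (-0.54). The 4 members not called were Calr (0.08), Canx (-0.18), Hspa5 (-0.0031) and Orai1 (0.11). Of these, Canx and Hspa5 were abundant (mean normalised counts 22259 and 28306), so the list did not move as a whole.

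RNAs of the glutamatergic postsynapse were higher in the coIP, from receptors to scaffolds and adhesion molecules. Of 23 tested glutamate receptor genes, 20 were higher and none lower (median 0.69), and of 30 scaffold genes of the postsynaptic density 28 were higher and none lower (median 0.88). In single lysates the medians ranged from 0.43 to 0.83 and from 0.57 to 1.06. Of 33 synaptic adhesion genes 29 were higher and 1 lower (median 0.76). Subunits of the NMDA receptor, the calcium-permeable glutamate receptor of plasticity, spanned much of the range: the obligatory subunit Grin1 stood at 211, 208, 209, 324 and 278 in the inputs and 449, 752, 693, 1182 and 762 in the coIP libraries, with no overlap (log2 fold change 1.60, SE 0.128, adjusted p = 7.28e-06).

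Grin2b, a subunit prominent early in development (chromosome 6, 135713233-136173511), was at 5191, 5001, 4980, 5652 and 5394 in the inputs and 8197, 11610, 11090, 12230 and 9888 in the coIP libraries. Its groups did not overlap, and lysate 1 had the lowest coIP value (log2 fold change 1.00, SE 0.101, adjusted p = 1.31e-05). The third NMDA receptor gene, Grin3a, had a smaller log2 fold change of 0.53 (adjusted p = 0.000827). It was at 499, 610.3, 641, 521 and 536 in the inputs and 756, 686, 963, 850.2 and 799.6 in the coIP libraries, and lysate 2 had the smallest step. Its call was lost with the length trend removed (adjusted p = 0.599). Other receptors that were higher were Grid1 (0.91), a delta receptor of synapse organisation, and the kainate receptor Grik1 (0.48). Grik1 was higher in 4 of 5 lysates, at 678, 399, 584, 594 and 434 in the inputs and 657, 732, 762, 1011 and 586 in the coIP libraries, and lysate 1 showed no increase.

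Among the scaffolds, Shank1 (chromosome 7, 44310253-44360572), which links receptor complexes to actin, was at 301, 239.7, 255, 264 and 284 in the inputs and 507, 558, 681, 705 and 674 in the coIP libraries. The lowest coIP value, in lysate 1, lay above the highest input (log2 fold change 1.21, SE 0.119, adjusted p = 1.22e-05). Shank2 moved alike, at 1461, 1307, 1437, 1393 and 1286 in the inputs and 2353, 3091, 2622, 2808 and 2437 in the coIP libraries (log2 fold change 0.95, SE 0.0958, adjusted p = 1.38e-05). Dlgap2, an adaptor between Shank proteins and PSD-95, was at 841, 759, 771, 823 and 702 in the inputs and 1272, 1545, 1270, 1720 and 1209 in the coIP libraries, again without overlap (log2 fold change 0.84, SE 0.0971, adjusted p = 2.77e-05). Sipa1l3 (1.51) and Sipa1l1 (1.07), regulators of Rap signalling, and Iqsec3 (1.12), an exchange factor of inhibitory synapses, were the other scaffold genes with the smallest p-values. Neuronal nitric oxide synthase, Nos1, which is tethered to PSD-95, was at 786, 696, 717, 678 and 769 in the inputs and 1189, 1250, 1399, 1190 and 1201 in the coIP libraries (log2 fold change 0.77, SE 0.0911, adjusted p = 3.07e-05), 5 coIP values above 5 inputs. The Shank1 and Nos1 calls were lost with length and GC trends removed (adjusted p = 0.156 and 0.0533).

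Adhesion molecules of both synaptic sides were among the higher genes: the neuroligin of inhibitory synapses Nlgn2 (1.27), the latrophilins Adgrl1 (1.18) and Adgrl3 (1.07), and the presynaptic neurexin Nrxn3 (0.91). The leucine-rich transmembrane proteins went different ways. Lrrtm1 was at 1154, 1049, 1394, 1694 and 1257 in the inputs and 1476, 1663, 1774, 3231 and 1626 in the coIP libraries, higher within each lysate although the groups overlapped (log2 fold change 0.53, SE 0.105, adjusted p = 0.000949). Its relative Lrrtm2 (-0.23) was the 1 lower member of the list, with adjusted p = 0.0289, a call lost without the lysate block or without lysate 2, 4 or 5. Synpo, Grin2b, Grin3a, Dlgap2, Camk2a, Shank1, Shank2, Nos1, Lrrtm1 and Grik1 are the genes the study displayed for this assay, so their direction is not independent evidence.

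**Figure D2:**
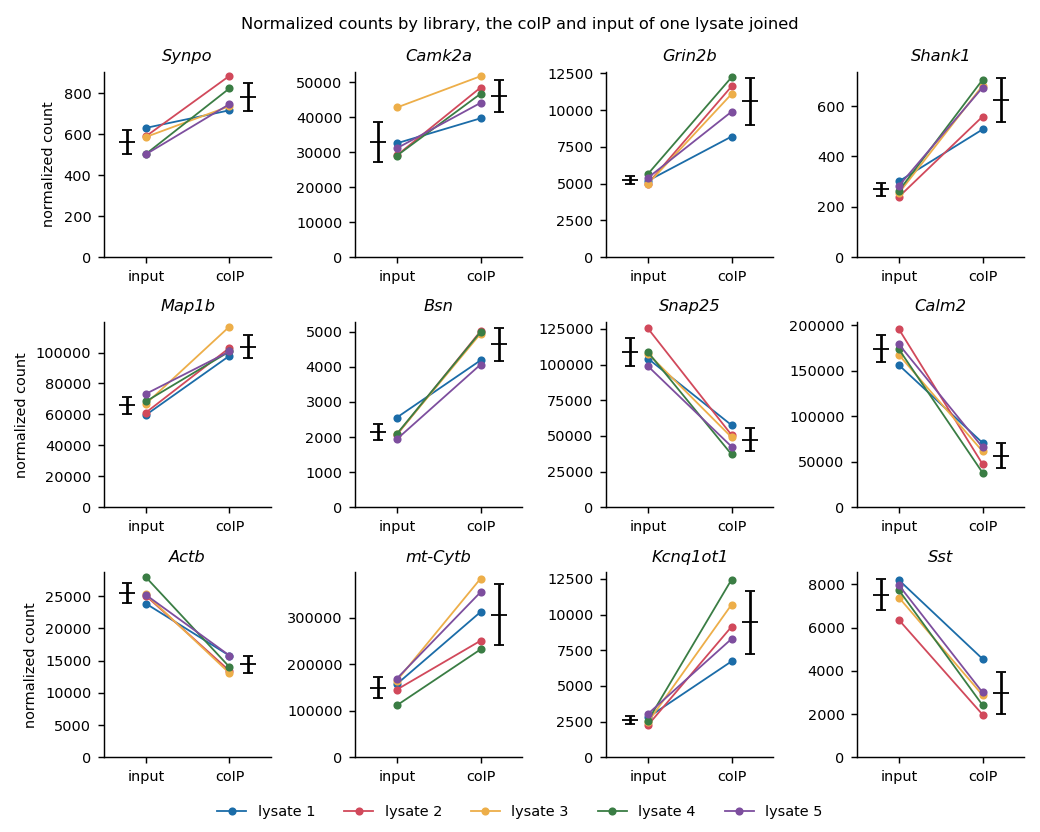
Normalised counts (vertical axis, one panel per gene) of 12 genes in the 5 inputs and 5 coIP libraries of the lesioned wildtype cultures, with lines joining the libraries of 1 lysate and the mean ± SD drawn beside each group. Grin2b, Shank1 and Kcnq1ot1 were higher and Calm2, Snap25 and Sst lower in all 5 lysates without overlap, whereas the Camk2a groups overlapped.

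mRNAs known from dendrites did not move as 1 group. Of 36 tested, 25 were higher and 8 lower (median 0.51). Camk2a, the kinase subunit whose mRNA is a standard example of dendritic localisation, was higher within each lysate, at 32540, 29090, 42770, 29000 and 31110 in the inputs and 39670, 48450, 51710, 46680 and 44080 in the coIP libraries, yet the input of lysate 3 exceeded the coIP of lysate 1 (log2 fold change 0.50, SE 0.0978, adjusted p = 0.00098). Kif5a (1.08) and Kif1a (0.98), motors of microtubule transport, Tsc2 (1.27), a brake on mTOR signalling, and Arc (0.77), an activity-induced regulator of receptor uptake, were higher. The lower members included Calm2 and actin. Calm2, a calmodulin gene, was at 156300, 195700, 167500, 173600 and 179100 in the inputs and 70830, 47410, 61490, 37980 and 65860 in the coIP libraries, with every coIP value below every input (log2 fold change -1.65, SE 0.146, adjusted p = 8.75e-06).

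The calcium sensor Hpca (-1.35), the calmodulin-binding Nrgn (-1.07) and beta-actin, Actb, were lower as well. Actb was at 23830, 25050, 25270, 27920 and 25180 in the inputs and 15760, 13410, 13060, 14010 and 15780 in the coIP libraries, and the groups did not overlap (log2 fold change -0.82, SE 0.0921, adjusted p = 2.25e-05). The microtubule-associated Map1b, an RNA of long coding sequence and 1 of the 10 most abundant called genes, was at 59660, 61190, 66850, 68390 and 73290 in the inputs and 97900, 103000, 116800, 100700 and 100700 in the coIP libraries (log2 fold change 0.66, SE 0.0885, adjusted p = 7.22e-05). The Map1b call was lost with the length trend removed. Of 36 RNA-binding proteins of transport granules 13 were higher (36.1%) and 10 lower (27.8%), near the 31.8% and 30.6% of all genes tested. Their median was 0.17, which was negative with length and GC trends removed. The microRNA effectors Ago1 (0.68), Ago2 (0.80), Tnrc6b (0.92) and Tnrc6c (0.94) were higher, and the cap-binding factor Eif4e (-1.48), Stau2 (-0.87) and Elavl4 (-0.70) lower.

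Genes for channels and the membrane skeleton were higher as well. Of 15 tested voltage-gated sodium and calcium channel genes, 12 were higher and none lower (median 1.15). Examples were the calcium channels Cacna1a (1.65), Cacna1h (1.57) and Cacna1c (1.25) and the sodium channels Scn2a (0.76) and Scn1a (0.60). Of 72 potassium channel genes 41 were higher and 7 lower (median 0.52), with Kcnh3 (1.66), Kcnt1 and Kcnma1 (0.82) on the higher side and the small channel-interacting protein Kcnip4 (-1.31) on the lower. All 14 genes for spectrins, ankyrins, adducins and protein 4.1, the lattice under the neuronal membrane, were higher (median 0.96), among them Sptbn4 (1.49), Sptan1 (1.28) and Sptbn1 (1.16).

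Ank2 (1.08) and Ank3 (0.98), the anchors of the axon and its initial segment, were among them, as was Add1 (0.27), whose log2 fold change was -0.02 with the length trend removed. The calls of Ank2 and Ank3 were lost there too. Of 52 tested clustered protocadherin genes, which give neurons their surface identity, 29 were higher and none lower (median 0.66), among them Pcdhgb4 (1.90) and Pcdha8 (1.75). Isoforms of a protocadherin cluster share their last exons, and reads there could not be assigned to 1 of them, so these values rest on the variable exons.

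Genes of the presynapse split within the same compartment. Of 38 tested, 23 were higher and 8 lower (median 0.38). Higher were the large proteins of the active zone, where vesicles dock: Bsn (1.11), Pclo (0.88) and Erc1 (1.06), together with the calcium sensor Syt7 (0.99). Bsn was at 2557, 2067, 2079, 2092 and 1941 in the inputs and 4185, 5015, 4944, 4992 and 4064 in the coIP libraries, without overlap, although its log2 fold change was -0.02 with length and GC trends removed. Lower were small proteins of vesicle fusion, Snap25 (-1.21), Cplx1 (-1.21), Vamp2 (-0.69) and the vesicle GTPase Rab3a (-0.77). Snap25 was at 104200, 125300, 107700, 108700 and 98860 in the inputs and 57530, 50650, 49070, 37050 and 42510 in the coIP libraries, with every coIP value below every input (log2 fold change -1.21, SE 0.105, adjusted p = 8.34e-06).

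Large groups of housekeeping genes were lower. Of 79 tested cytosolic ribosomal protein genes none was higher and 72 were lower (median -1.05), for example Rpl19 (-1.21) and Rpl28 (-1.10). Mitochondrial ribosomal proteins (76 tested, 70 lower, median -1.07) and the nuclear genes of the respiratory chain (81 tested, 73 lower, median -1.05) moved alike, with Mrpl36 (-1.66), Mrpl35 (-1.44), Ndufv2 (-1.42) and Atp5g3 (-1.27) among them. The only higher members were Mrps35 (0.52) and Cox6a1 (0.30), the latter in 3 of 5 lysates with adjusted p = 0.045, a call lost without the lysate block or without lysate 1, 3 or 5. Of 37 proteasome genes 34 were lower (median -0.93), such as Psma1 (-0.998), and Psmd3 (0.34) was higher.

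Actin monomers, their binding proteins and the Arp2/3 complex, which build spine actin, were lower without exception: 20 of 20 (median -0.93), with Tmsb4x (-1.92), Tmsb10 (-1.74), Dstn (-1.61), Arpc5 (-1.56) and Cfl1 (-1.32) below Actb. Tmsb4x, which sequesters actin monomers, was at 58080, 74740, 76320, 78120 and 85030 in the inputs and 24220, 13260, 22480, 12530 and 31310 in the coIP libraries. Lysates 2 and 4 had its lowest coIP values. Of 55 Rab GTPases 40 were lower, among them Rab3b (-1.51), and 3 higher, Rab34, Rab24 and Rab43, names taken after their values were seen. Translation factors were mixed, 14 of 67 higher, such as Eif4g1 (0.93), a scaffold of initiation, and Eif2ak3 (1.04), a stress kinase, and 43 lower, such as Eif5a (-1.33). Of 326 Zfp zinc finger genes 51 were higher, such as Zfp609 (1.06), and 133 lower, such as Zfp422 (-1.11) (median -0.28).

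**Figure D3:**
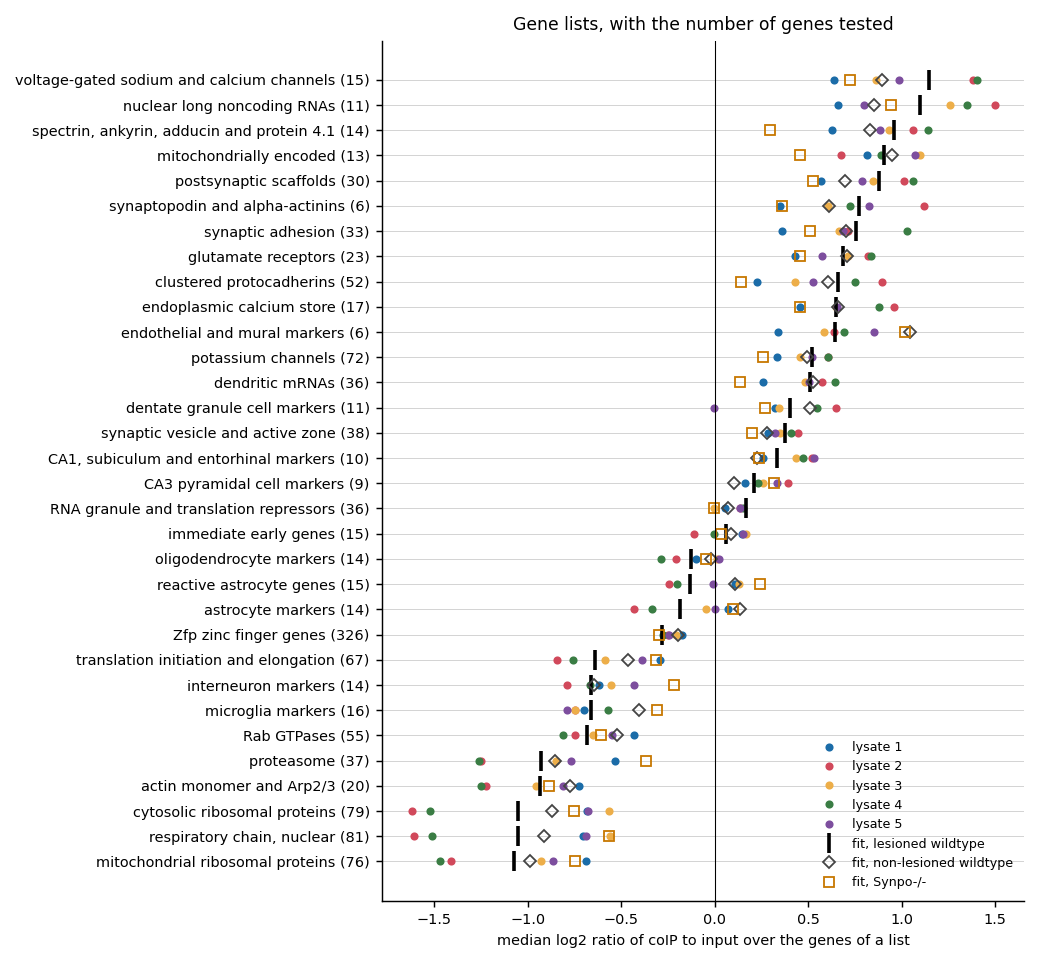
Median log2 ratio of coIP to input (horizontal axis) over the tested genes of 32 lists, their number in brackets, with a coloured point for each lysate of the lesioned cultures, a bar for the lesioned fit, a diamond for the non-lesioned fit and a square for the Synpo-/- fit. The lesioned fit ran from -1.07 for mitochondrial ribosomal proteins to 1.15 for sodium and calcium channels, and lysates 2 and 4 lay outermost in several lists.

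RNA made inside mitochondria went against the nuclear genes for the same organelle. Of the 13 mitochondrially encoded protein genes, 11 were higher and none lower (median 0.90), and mt-Nd3 (0.60, adjusted p = 0.052) and mt-Nd4l (0.41, adjusted p = 0.0617) did not pass. mt-Cytb, of respiratory complex III, was at 157800, 145900, 165400, 112100 and 169700 in the inputs and 312600, 250800, 384200, 232200 and 355100 in the coIP libraries, without overlap (log2 fold change 1.02, SE 0.0914, adjusted p = 9.32e-06). The ribosomal RNA mt-Rnr2 (0.93), mt-Co1 (0.90) and mt-Nd1 (0.99) were higher by similar amounts. With the length trend removed all 13 were higher. That removal raises short genes: the 13 had a median exon length of 784 bases, and protein-coding genes under 1 kb a median of -1.07. The added calls are therefore no further evidence.

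RNAs that stay in the nucleus were higher too. Of 11 tested nuclear long noncoding RNAs 8 were higher and 1 lower (median 1.10). Kcnq1ot1, an imprinted RNA that silences its neighbours in cis, was at 2802, 2258, 2471, 2581 and 3047 in the inputs and 6724, 9148, 10690, 12440 and 8296 in the coIP libraries (log2 fold change 1.82, SE 0.145, adjusted p = 7.28e-06), more than 2-fold higher in every lysate. Neat1, the core of paraspeckles, was at 1018, 1113, 1695, 1145 and 1806 in the inputs and 2827, 4185, 5151, 5062 and 5239 in the coIP libraries (log2 fold change 1.73, SE 0.111, adjusted p = 6.72e-06). Miat (1.09) and Snhg11 (0.70) were higher, Malat1 (0.20, adjusted p = 0.14) and Meg3 (0.42, adjusted p = 0.0676) did not pass, and Pvt1 (-0.82) was lower. Xist, which coats the inactive X chromosome, was at 13.2, 1122, 4.28, 17.3 and 2894 in the inputs and 37.2, 5562, 19, 36.4 and 11520 in the coIP libraries. It was abundant in lysates 2 and 5 and scarce in the others; the Y-linked Ddx3y was at 2992, 1871, 3171, 2876 and 10.5 in the inputs, and Xist was higher within all 5 lysates (log2 fold change 1.98, SE 0.159, adjusted p = 7.28e-06, adjusted p = 0.275 without the lysate block).

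Noncoding loci inside other genes stood out. The 1172 tested genes of the biotype TEC, loci awaiting experimental evidence, were higher in 77.2% of cases, at a median of 1.34 on the log2 scale. Of the 1170 with 1 annotated locus, 938 (80.2%) lay within a protein-coding gene, with a median of 1.43, against 0.51 for the 232 outside. The 114 sense intronic RNAs had a median of 1.18 (75.4% higher). The 649 long intergenic RNAs, which lie mostly outside genes, had a median of -0.24. Counts were made without strand, so reads of an unspliced host transcript and of a locus in its intron cannot be told apart. In the Synpo-/- libraries the medians were 1.09 for TEC loci and 1.05 for sense intronic RNAs.

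The genes with the largest log2 fold changes among those called with at least 100 normalised counts on average and moving alike in all 5 lysates were of no single kind. On the higher side they were Wdr90 (2.00), a ciliary protein, Xist (1.98), Pcdhgb4 (1.90), Gpr171 (1.90), Col5a1 (1.83), a fibrillar collagen, Kcnq1ot1 (1.82), Plxna4os2 (1.81), Chd5 (1.80), a neuronal chromatin remodeller, Clasrp (1.77), a splicing factor, and Carmil3 (1.77), a regulator of actin capping. Gpr171 lies in Med12l, Kcnq1ot1 in Kcnq1 and Plxna4os2 in Plxna4 on the opposite strand, and Wdr90 overlaps Rhot2, so these counts are uncertain between the partners. Chd5, at 313, 225, 162, 227 and 192 in the inputs and 652, 862, 643, 994 and 729 in the coIP libraries, did not overlap between groups, and lysate 1 had its smallest step.

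On the lower side were Pvalb (-2.03), the calcium buffer of fast-spiking interneurons, Arhgdib (-1.97), Tmsb4x (-1.92), Aif1 (-1.91), a microglial actin-binding protein, the interferon-induced Ifi27l2a (-1.90), the G protein subunit Gng2 (-1.89), Tstd3 (-1.87), Mllt11 (-1.87), cytochrome c, Cycs (-1.87), and the predicted gene Gm9844 (-1.80). Pvalb was at 1386, 1315, 966, 1282 and 1276 in the inputs and 471, 186, 380.5, 191 and 372 in the coIP libraries, without overlap (log2 fold change -2.03, SE 0.206, adjusted p = 1.39e-05). Among the 10 called genes with the highest mean counts, mt-Cytb, mt-Co1, mt-Rnr2 and Map1b were higher and Ubb, Calm2, Aldoc, Eno1 and Snap25 lower. Of the latter, polyubiquitin Ubb (-1.11) was lower in all lysates, while the glycolytic Eno1 (-0.47) and Aldoc (-0.40) had overlapping groups.

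Markers of other cells in the culture gave values for the company the coIP RNA kept. Both libraries of a pair came from the same lysate and so from the same cells, whereas between lysates fewer cells of a type and less RNA per cell cannot be told apart. Of 16 microglia markers 14 were lower (median -0.66), and their summed level was 2318 to 4002 CPM in inputs and 1646 to 2500 CPM in coIP libraries. Aif1 (-1.91) was at 906, 1222, 1368, 1266 and 1651 in the inputs and 416, 188, 385, 269.8 and 489.9 in the coIP libraries, and the adaptor Tyrobp (-1.28) was lower as well. The larger receptors Csf1r (0.49) and Itgam (0.65) were higher. With the length trend removed 6 of the 16 were lower. The part of microglial RNA in the other results was not tested.

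Of 14 astrocyte markers 4 were higher and 5 lower (median -0.19, near 0 with library size alone or length trends removed). Aldh1l1 (0.77), Fgfr3 (0.88) and the glutamate transporter Slc1a2 (0.50) were higher, Glul (-0.46) and Aldoc (-0.40) lower, and Gfap (0.14, adjusted p = 0.175) did not pass. Of 14 oligodendrocyte markers 5 were higher, among them the myelin mRNAs Mbp (0.58) and Mobp (0.63), and 6 lower, among them Opalin (-1.06) (median -0.13, 0.09 with the length trend removed). The calls of Mbp and Mobp were lost without the lysate block. Of 6 tested endothelial and mural markers 3 were higher, among them the receptors Flt1 (0.71) and Kdr (1.17), and 1 was lower. The calls of Flt1 and Kdr were lost with length trends removed, and that of Kdr also without lysate 4 or 5. Pecam1, Cldn5, Cdh5 and Ly6c1 had too few counts to be tested.

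Markers of the principal cells went both ways, in short lists set beside 31.8% higher and 30.6% lower over all genes tested. For dentate granule cells 6 of 11 were higher, such as Pdzd2 (1.05), and 3 lower, such as Calb1 (-0.73) and Stxbp6 (-0.93). For CA3 pyramidal cells 4 of 9 were higher, such as Col6a1 (1.62) and Grik4 (0.71), and 3 lower, and for CA1, subiculum and entorhinal cortex 5 of 10 were higher, such as Fibcd1 (1.43), Reln (0.84) and Wfs1 (0.60), and 1 lower. The medians were 0.40, 0.21 and 0.33.

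Of 14 interneuron markers 9 were lower and 2 higher (median -0.66). The neuropeptide Sst, made by a major class of inhibitory neurons, was at 8199, 6356, 7392, 7729 and 7959 in the inputs and 4556, 1981, 2880, 2419 and 3007 in the coIP libraries, every coIP value below every input (log2 fold change -1.39, SE 0.121, adjusted p = 8.5e-06). Npy (-1.20), Vip (-0.59) and Cck (-0.91), also peptides, and the calcium buffer Calb2 (-1.13) were lower, while the receptor Erbb4 (0.91) and Nos1 (0.77) were higher. The enzymes of GABA synthesis shared by these cells, Gad1 (0.08, adjusted p = 0.404) and Gad2 (-0.05, adjusted p = 0.661), did not pass.

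Genes that respond to activity or lesion were mixed, as were all genes tested (31.8% higher, 30.6% lower). Of 15 immediate early genes 5 were higher, among them Arc (0.77), Nr4a3 (0.72) and Jun (0.47), and 3 lower, among them Btg2 (-0.996) and Fos (-0.59) (median 0.06). Of 15 reactive astrocyte genes 3 were higher, such as Nes (1.34), and 4 lower, such as Lcn2 (-0.42), with Vim (0.25, adjusted p = 0.0591) not passing (median -0.13, 0.22 with the length trend removed).

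The feature most closely ranked with the log2 fold change was the length of the coding sequence. Over 14352 protein-coding genes, Spearman's rho was 0.691 for coding length, 0.513 for the length of all exons, 0.186 for GC content, 0.142 for the 3' untranslated region (UTR) and 0.121 for the 5' UTR, given as a description across genes, which share the same libraries. In single lysates rho for coding length ran from 0.584 to 0.665. The median log2 fold change was -0.995 for the 1178 genes with a coding sequence under 0.5 kb, of which 79% were lower. It was -0.60 at 0.5 to 1 kb, -0.10 at 1 to 2 kb and 0.41 at 2 to 4 kb. It reached 0.83 for the 1112 genes with 4 kb or more, of which 84.9% were higher.

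**Figure D4:**
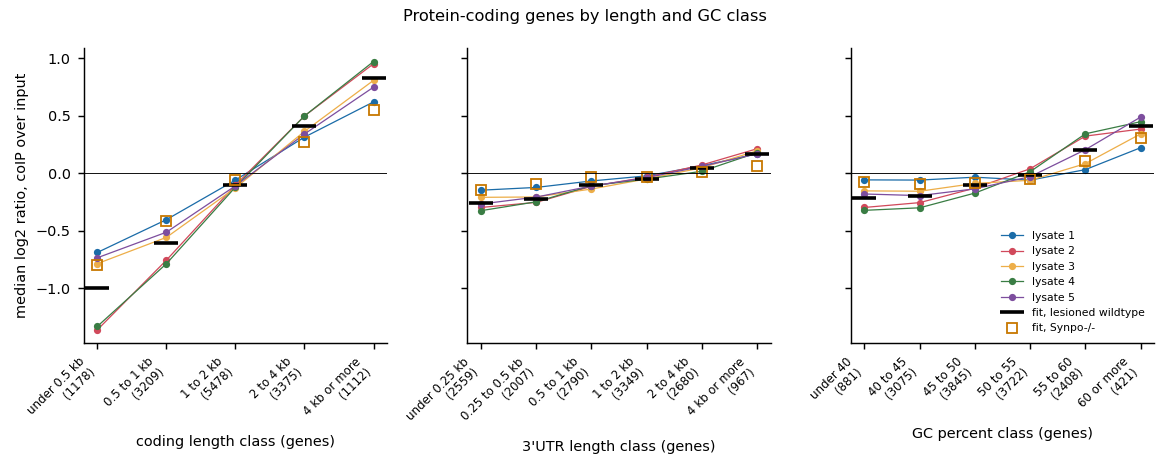
Median log2 ratio of coIP to input (vertical axis) by class of coding length, 3' UTR length and GC percent of protein-coding genes (horizontal axes, number of genes in brackets), with a coloured line for each lysate, a bar for the lesioned fit and a square for the Synpo-/- fit. The lesioned median climbed from -0.995 to 0.83 over classes of coding length and from -0.25 to 0.17 over classes of 3' UTR length.

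The 2 lengths were separated by crossing their classes. Among genes with a coding sequence of 2 kb or more the median was 0.54, 0.51 and 0.52 for 3' UTRs under 0.5 kb, of 0.5 to 1.5 kb and of 1.5 kb or more, so it hardly varied with the UTR. Among genes with a coding sequence under 1 kb it was -0.83, -0.70 and -0.49. Synpo-/- libraries showed the same order at smaller size, with a rho of 0.589 for coding length and medians of -0.80 and 0.55 in the lowest and highest class.

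Because the named groups differ in length, lists were also described after taking the trends over exon length and GC out of each library. A trend over coding length was not removed. Values for a part of the lists are given, as a distance from the all-gene median of that fit. Over all 18229 genes that fit called 5838 higher and 4185 lower, and its list counts are read against these. The list medians were then 0.39 for glutamate receptors (17 of 23 higher), 0.29 for scaffolds (20 of 30), 0.23 for adhesion genes (20 of 33) and 0.42 for sodium and calcium channels (11 of 15). Spectrins and their partners were at 0.14, with 8 of 14 higher. Dendritic mRNAs were at 0.09, with 18 higher and 10 lower. Clustered protocadherins were at 0.54 and mitochondrially encoded genes, which are short and so raised by the removal, at 1.39. On the lower side the medians were -0.80 for actin monomers and Arp2/3 (19 of 20 lower), -0.58 for cytosolic ribosomal proteins (60 of 79 lower), -0.60 for the proteasome, -0.57 for interneuron markers and -0.49 for microglia markers (11 of 16 lower).

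The non-lesioned wildtype cultures asked whether the lesion changed what the coIP held. Their own comparison, over 5 lysates that share no library with the lesioned ones, called 6022 of 18222 genes higher (33%) and 5371 lower (29.5%). Of the genes tested in both, 5015 were higher in both, which is 88.9% of the lesioned and 84.4% of the non-lesioned higher genes, and 4748 were lower in both (85.7% and 89.3%). Over 17772 genes the log2 fold changes had a Pearson r of 0.925, as a description across genes. Calls in opposite directions were made for 1 gene, the scavenger receptor Colec12, named after its values were seen, at -0.29 in lesioned and 0.32 in non-lesioned cultures. Its lesioned call (adjusted p = 0.0478, up to 0.532 over the alternatives) was lost without the block, with library size alone and without lysate 1, 3 or 5.

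The difference in enrichment between lesioned and non-lesioned cultures, tested as an interaction over 20 libraries, passed for 0 of 19581 genes with edgeR, with the smallest adjusted p at 0.999 and 752 genes at an unadjusted p under 0.05. DESeq2 also called 0. Synpo was at 0.48 and 0.47, Grin2b at 1.00 and 0.90, Shank1 at 1.21 and 1.23, Camk2a at 0.50 and 0.54 and Sst at -1.39 and -1.31 in lesioned and non-lesioned cultures. The low gene Itpr3 was at 1.89 and 0.22 (adjusted p of the difference = 0.999). Without a filter on low counts 1 gene was called, the nuclear RNA Malat1, with a difference of 0.45 (adjusted p = 0.0198).

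The cultures labelled Synpo-/- served the study as a measure of unspecific binding, although Synpo RNA did not set them apart from wildtype. Their comparison over 2 lysates called 3660 of 20892 genes higher (17.5%) and 3816 lower (18.3%), and with fewer lysates these counts cannot be set against the wildtype ones. Of 5796 lesioned-higher genes with a Synpo-/- value, 5507 had a positive log2 fold change there and 3078 were called higher (53.1%, and 89.5% of the Synpo-/- higher genes tested in both). Their median was 0.86 in lesioned, 0.76 in non-lesioned and 0.59 in Synpo-/- cultures. Of the lesioned-higher genes, 2 were called lower in Synpo-/-: Caln1, a calcium-binding protein (0.42 against -0.38), and Ypel1 (0.28 against -0.45). Both were named after their values were seen. Lesioned-lower genes called higher in Synpo-/- were not counted. The lesioned call of Caln1 was lost with length trends removed, and that of Ypel1 (adjusted p = 0.0466, range 0.00518 to 0.214 over the alternatives) with DESeq2, without the block and with any 1 lysate left out, among others.

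The tested difference between lesioned wildtype and Synpo-/- enrichment passed for 0 of 20952 genes with edgeR (smallest adjusted p = 0.378, 2098 genes at an unadjusted p under 0.05). DESeq2 called 64, of which 32 were higher in wildtype, among them Caln1, Map1b, Camk2a, Bsn, Nos1 and Shank2, and 32 lower, among them Sst, Npy, Calb2, Actb and Vim. The edgeR fit without lysate 1 called 1, Sst. Side by side, the log2 fold changes in wildtype and Synpo-/- were 0.48 and -0.03 for Synpo, 0.50 and -0.23 for Camk2a, 0.66 and -0.09 for Map1b and 0.95 and 0.28 for Shank2. They were 1.00 and 0.36 for Grin2b, 1.21 and 0.72 for Shank1 and 1.60 and 1.11 for Grin1, so these receptor and scaffold genes were positive in both.

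Among lower genes Sst (-1.39 against -0.28), Actb (-0.82 against -0.12) and Calb1 (-0.73 against 0.06) were nearer to 0 in Synpo-/- cultures, and Cck was called in the other direction there (-0.91 against 0.87). The lesioned call of Cck was lost without the lysate block and with length trends removed. The nuclear RNA Kcnq1ot1 was at 1.82 and 1.61 and Neat1 at 1.73 and 1.88. Of the mitochondrial genes mt-Cytb was at 1.02 and 0.75 and mt-Co1 at 0.90 and 0.46, and the list had medians of 0.90 and 0.46. The actin monomer and Arp2/3 list had medians of -0.93 and -0.89 and the cytosolic ribosomal proteins of -1.05 and -0.75. For spectrins and their partners they were 0.96 and 0.30, for dendritic mRNAs 0.51 and 0.14, and for clustered protocadherins 0.66 and 0.14. Other neuronal lists kept more of their size in Synpo-/- cultures. The medians were 0.69 and 0.46 for glutamate receptors, 0.88 and 0.52 for scaffolds and 0.76 and 0.51 for adhesion genes. They were 0.65 and 0.46 for the calcium store and 1.15 and 0.73 for sodium and calcium channels.

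**Figure D5:**
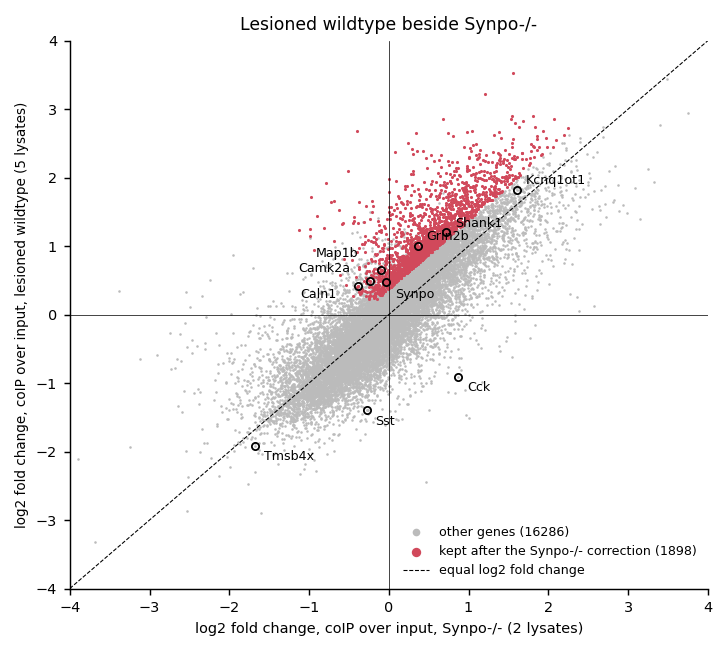
Log2 fold change of coIP against input in lesioned wildtype (vertical axis, 5 lysates) beside Synpo-/- cultures (horizontal axis, 2 lysates), 1 point per gene, with the 1898 genes kept after the Synpo-/- correction in red and the line of equal values dashed. The cloud follows the line, Synpo, Camk2a and Map1b lie above it near 0 in Synpo-/-, and 1 gene is outside the axes.

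The study corrected for unspecific binding by subtracting the Synpo-/- log2 fold change from that of each higher wildtype gene and keeping those with more than 30% enrichment left. Applied to the edgeR values, this kept 1898 genes, 10.4% of all genes tested. Of these, 614 also had an unadjusted p under 0.05 for the tested difference, and 1520 were higher in non-lesioned cultures. Only genes called higher could be kept, so list counts are read against 1898 of the 5804 higher genes. Kept were 10 of the 28 higher scaffold genes, 7 of 20 glutamate receptors and 10 of 29 adhesion genes, near that share. Other lists differed, and a part of them is given. Above that share were 16 of 25 higher dendritic mRNAs and 6 of 14 spectrins and partners. So were 19 of 29 higher protocadherins and 7 of 11 higher mitochondrially encoded genes. Near it were 4 of 12 higher calcium store genes and 8 of 23 higher presynaptic genes. Below it were 1 of 14 higher translation factors, 1 of 8 higher nuclear long noncoding RNAs and 0 of 4 higher astrocyte markers. Of the 10 genes the study displayed, 9 were kept, all but Grin3a. The study displayed them in a plot that already applied this correction, so this count is not independent evidence.

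How many genes the subtraction kept moved with its limit and with single lysates. It was 4572 with any positive remainder and 879 with more than 50% left. Leaving out lysate 2 or lysate 4 gave 1438 and 1466 genes, and leaving out lysate 1, which had the smallest ratios, gave 2514. With the length trend removed in both genotypes 2405 genes were kept, of which 1455 were among the 1898. The kept genes had a median exon length of 4784 bases against 3851 for all genes tested, and rho between the remainder and coding length was 0.379.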

How the data were processed

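Per the submitters' processing notes and the study's methods, the authors made low-input libraries (NEBNext Single Cell/Low Input kit), sequenced paired-end reads of 150 bp for the coIP assay, trimmed them with cutadapt 3.5, mapped them to mm10 with STAR 2.7.8a and counted exons without strand with featureCounts 2.0.1 on the GENCODE M25 annotation (GRCm38), keeping samples with more than 60% uniquely mapped reads. They deposited whole-number counts per gene and library, not normalized and not pooled, which is the unit used here.

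Counts were filtered (filterByExpr), scaled (TMM) and tested with edgeR 4.0.16 in R 4.3.3, using the quasi-likelihood test with lysate as a block and Benjamini-Hochberg adjustment at 0.05. DESeq2 1.42.0 and limma 3.58.1 (voom with sample quality weights) served as alternatives. The coIP and input of a number came from 1 lysate, and their deviations from the group means correlated (r = 0.105 to 0.381; the coIP of lysate 2 correlated more, 0.147, with another lysate than with its own, 0.122). Synpo-/- pairs were taken by preparation number; their biological replicate numbers are crossed. Replicates are separate lysates of 5 to 6 pooled cultures. With the block, p-values rest on how the difference between coIP and input varied across lysates, not on the spread of levels between them. Enrichment differences were tested as interactions with lysate blocks. The study used DESeq2 without a block.

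Gene lists and members were chosen with earlier results of these data known. Genes named were the 10 the study displayed, the 10 largest log2 fold changes in each direction among called genes with a mean normalized count of at least 100 moving alike in all 5 lysates, the 10 most abundant called genes, and list members (up to 4 in each direction by p, or all of lists of 20 or fewer), plus those said to be named after their values were seen. A few genes the rule selects are not reported here. Trends over exon length and GC, not coding length, were removed as lowess offsets per library (span 0.3). Scripts were tested on simulated data. The 39 regional libraries of the series were not used here.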

Additional observations from a re-analysis of the deposited data

Results flagged for a closer look

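Each value by lysate of the genes named, and the depth measures of the libraries, were checked in groups of 5 for a highest or lowest sample that stands far from the nearest other, and 9 of 212 groups held one; chance alone marks about 1 in 20 groups. Lysate 1, whose log2 ratios of coIP to input were the smallest in general, was the lowest for Chd5 (1.05), Sipa1l3 (0.96), Iqsec3 (0.70) and Psmd3 (0.20), and the highest, closest to 0, for Calb1 (-0.0574). Lysate 2 was the lowest for Grin3a (0.17). Lysate 5 was the highest for Fgfr3 (1.47) and lysate 4 for Pdzd2 (1.29). Among the library measures, the share of counts taken by the 10 most abundant genes was lowest in the input of lysate 4, at 6.98%. In each of these 8 genes the lysate that stood apart had the sign of the others.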

How the results depend on the processing

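The numbers of higher and lower genes stayed within 1.5 times of 5804 and 5572 with DESeq2, without the lysate block (5557 and 5063, no replicate block), with other scaling, without a filter, with voom weights, with trends removed, in a fit of all 20 wildtype libraries, and without single replicates (5139 to 5816 and 4930 to 5537). A mean normalized count over 300 left 2646 higher and 3755 lower genes (41.3% higher, against 51%), with fewer genes that could be called. Removing length and GC trends reversed Synpo (-0.23) and Bsn (-0.021), and removing the length trend reversed Add1 (-0.0184). No median of a list with most members called 1 way changed sign, but those of the RNA granule, astrocyte, oligodendrocyte and reactive astrocyte lists did with trends removed, the last 3 also with library size alone, and that of the immediate early genes without replicate 5. The block changed the calls of Xist, Aldoc, Lrrtm2, Cox6a1, Csf1r, Glul, Mbp, Mobp, Cck, Lcn2, Ypel1, Colec12 and Ryr1 among the genes named, which were lost without it, and the cause was not tested.

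The difference between lesioned and non-lesioned cultures went from 0 to 1 gene without a filter on low counts. The difference from Synpo-/- went from 0 to 64 genes with DESeq2, to 113 without a filter, and ranged from 0 to 1 without single replicates. The corrected list held 4572 genes with any positive remainder, 879 with over 50%, and 1438 to 2514 without single replicates. Pairing Synpo-/- libraries by biological replicate number, an alternative chosen after seeing the data, kept 1900 genes and called 0 differences. Spearman's rho with exon length, 0.513, was 0.558 for the transcript with the longest coding sequence and 0.444, 0.469, 0.482 and 0.437 in lysates 1, 3, 4 and 5 alone. Depth limits genes such as Itpr3 and Rab43, with few counts per library, and the 2 Synpo-/- lysates limit every comparison with them.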
